A study of Rattus norvegicus with 24 samples.

Results

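The MHC class II genes of the rat were followed in whole blood. They comprised 9 genes out of 25885 gene or probe names on the array: RT1-Ba, RT1-Bb, RT1-Da, RT1-Db1, RT1-DMa, RT1-DMb, RT1-DOb, Cd74 and Ciita. The members were the array probes, controls left out, whose annotated gene name equals one of these names, a rule on names and not on measured values. The array carried 11 such probes, RT1-Bb and RT1-Db1 having 2 each, and 9 probes of 8 genes gave enough signal to be tested. RT1-Ba and the dimmer RT1-Bb probe were below the detection limit on most arrays and are described apart.

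Blood RNA of male Sprague-Dawley rats, an outbred stock whose age the methods give as 8 weeks before the feeding period, was hybridized to 24 two-color Agilent arrays, 4 per group, against 1 common reference pool. All rats were fed a semi-synthetic diet for 6 weeks, without beta-glucan (G0), with oat beta-glucan of high molecular weight (G1) or with oat beta-glucan of low molecular weight (G2). One set of each diet received lipopolysaccharide (LPS, a component of bacterial outer membranes) intravenously at 10 mg/kg (LPS-G0, LPS-G1, LPS-G2). The other served as control (C-G0, C-G1, C-G2). Per the methods the LPS injection was repeated after an interval, and controls were injected with saline in the same way. For LPS-G0 replicates 3 and 4 the sample title names LPS and another label field names control. They were kept in LPS-G0 by the title, and the main values of the comparisons with that group are also given without them. Whole blood holds all circulating leukocytes, red cells and platelets, so fewer cells of a type and less RNA per cell cannot be told apart.

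MHC class II molecules are pairs of an alpha and a beta chain that display peptides from engulfed proteins to CD4-positive T cells. In blood they are found mainly on B cells, monocytes and dendritic cells. Newly made chains are held by the invariant chain Cd74, which blocks the peptide groove and guides the complex to endosomes. There the DM heterodimer helps exchange the last remnant of Cd74 for a peptide, and the DO heterodimer, made largely by B cells, restrains DM. Transcription of these genes depends on the coactivator Ciita, which does not bind DNA itself but docks onto factors sitting on a shared promoter module that includes an X box and a Y box.

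Letters of that module were looked for in the members' promoters. The sequences are from RefSeq (GRCr8), which held 7 of the 9 members. RT1-DMb and Ciita had no entry. In 6 of the 7, the letters GNNACNG (part of the X box) were followed 15 to 35 bases later by ATTGG (the core of the Y box, an inverted CCAAT) within the 250 bases before the start. Cd74 did not have this pair. Both strands were searched, and these letters were chosen after the promoters had been read. The pair occurred in 1040 of 33469 promoters (3.11%), and ATTGG on either strand in 34.0%. A match describes the letters and not a bound site. The stretches below run 5′ to 3′ with 12 bases on each side, and the capitals mark the X-box letters and the ATTGG. They are shown because most of the presenting and loading genes for which a promoter was at hand share them.
RT1-Ba (chr20:4576969-4577030, plus strand): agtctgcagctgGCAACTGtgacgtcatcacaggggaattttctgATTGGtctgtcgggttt
RT1-Bb (chr20:4604163-4604223, minus strand): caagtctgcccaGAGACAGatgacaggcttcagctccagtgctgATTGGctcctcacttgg
RT1-Da (chr20:4515321-4515382, plus strand): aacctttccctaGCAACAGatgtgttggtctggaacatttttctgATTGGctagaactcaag
RT1-Db1 (chr20:4560226-4560286, minus strand): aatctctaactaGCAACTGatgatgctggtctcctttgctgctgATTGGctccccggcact
RT1-DMa (chr20:4712383-4712444, minus strand): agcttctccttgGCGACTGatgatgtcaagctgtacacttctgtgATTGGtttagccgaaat
RT1-DOb (chr20:4627590-4627648, minus strand): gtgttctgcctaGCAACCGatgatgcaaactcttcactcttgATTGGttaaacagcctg
Between the 2 capitalized stretches lay 23 to 26 bases in these 6 genes, which include any further letters of the 2 boxes. ATTGG ended 38 to 78 bases before the start.

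The values below are log2 ratios of the rat RNA (Cy3) over the reference (Cy5), so that 0 equals the level of the pool and a difference of 1 is 2-fold. The sample labels give this dye order, and the published methods give the reverse. The within-group SD was larger in Cy3 for 96.73% of 7074 probes bright in both channels, and the labels were followed. With the dyes of the methods every sign would turn. In Cy3, the number of probes clearly above background ran from 7786 to 15385 over the arrays. Arrays C-G0 replicate 1 and C-G1 replicate 2 stood apart: each was the array farthest from the median for 24.06% and 26.13% of the tested probes, against 0.38% to 5.48% for the other arrays. C-G0 replicate 1 had the lowest value of all 24 arrays for 6 of the 9 tested class II probes, so the values that it moved most are also given without it.

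Among the peptide-presenting chains, RT1-Da encodes the alpha chain and RT1-Db1 a beta chain of RT1-D, the rat counterpart of human HLA-DR. RT1-Da averaged -0.47 ± 0.86 in C-G0, -0.66 ± 0.36 in LPS-G0, 0.13 ± 0.17 in C-G1, -0.08 ± 0.24 in LPS-G1, -0.13 ± 0.52 in C-G2 and -0.12 ± 0.43 in LPS-G2 (SD, n = 4 each). LPS-G0 was lowest on average, and the spread of C-G0 came largely from replicate 1 at -1.72. For the brighter RT1-Db1 probe the 4 LPS-G0 arrays read -0.13, -0.64, -0.29 and -0.49, and the 4 LPS-G1 arrays 0.15, 0.49, 0.00 and 0.09. Every LPS-G1 array lay above every LPS-G0 array. LPS-G2 arrays read 0.45, -0.38, 0.06 and 0.66, with 1 of them inside the LPS-G0 range. Among controls the same probe read -1.24, -0.28, 0.00 and 0.20 in C-G0, 0.32, 0.53, -0.02 and 0.29 in C-G1, and -0.38, -0.02, 0.20 and 0.45 in C-G2, and these ranges overlap. The 2 RT1-Db1 probes followed each other over the arrays (r = 0.868, n = 24), although the dimmer probe had a wider within-group SD (0.573 against 0.384).

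RT1-Bb, the beta chain of RT1-B (the counterpart of HLA-DQ), had, by its brighter probe, the smallest within-group SD of the 9 tested probes (0.138). It ranged from -0.30 to 0.27 over the 24 arrays. The group means went from -0.24 ± 0.07 in C-G2 to 0.04 ± 0.22 in LPS-G2 (SD, n = 4). The 4 C-G2 arrays lay between -0.30 and -0.15, and the LPS-G2 arrays between -0.15 and 0.27, with ranges that overlap.

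The loading machinery comprises Cd74, RT1-DMa and RT1-DMb (the chains of DM) and RT1-DOb (the beta chain of DO). Cd74 read -0.48, -0.84, -0.42 and -0.52 in LPS-G0, 0.08, 0.61, -0.02 and 0.28 in LPS-G1, and 0.14, -0.18, 0.21 and 0.64 in LPS-G2. All 8 LPS arrays on the beta-glucan diets were above all 4 LPS arrays on the plain diet. How many of all tested probes show this joint order was not counted. For the single pairs, 7.27% of all tested probes lay above LPS-G0 without overlap in LPS-G1, and 2.75% in LPS-G2. Without LPS, Cd74 read -1.40, 0.39, 0.25 and 0.32 in C-G0, 0.35, 0.69, 0.34 and 0.27 in C-G1, and -0.49, 0.27, 0.54 and 0.26 in C-G2. Most control arrays thus lay above the reference, and C-G0 replicate 1 and C-G2 replicate 1 lay well below their groups.

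RT1-DMb read -0.36, -0.17, -0.15 and 0.08 in LPS-G0 and 0.28, 0.34, 0.09 and 0.37 in LPS-G1, which do not overlap. In C-G0 it read -0.83, 0.05, -0.33 and -0.10, and in C-G2 0.18, 0.09, 0.60 and 0.23, which do not overlap either. The remaining DMb values were 0.40, -0.04, 0.07 and 0.00 in C-G1 and 0.34, 0.19, -0.04 and 0.59 in LPS-G2. RT1-DMa, its partner chain, was lowest in C-G0 (-0.44 ± 0.68) and highest in LPS-G2 (0.22 ± 0.20), with replicate 1 of C-G0 at -1.42. RT1-DOb kept within -0.56 and 0.39 on all 24 arrays, with group means from -0.23 ± 0.16 in C-G0 to 0.09 ± 0.33 in LPS-G2 (SD, n = 4).

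Ciita, the activator of the others, had another order of groups. It read 0.03, 0.51, 0.93 and 0.19 in C-G0 and -0.28, -0.35, 0.19 and -0.07 in LPS-G0. It read 0.13, 0.43, 0.22 and 0.35 in C-G1, 0.42, 0.52, 0.18 and 0.32 in LPS-G1, -0.05, 0.23, -0.07 and -0.19 in C-G2, and -0.14, 0.40, 0.21 and 0.45 in LPS-G2. C-G0 had the highest mean (0.41 ± 0.40) and LPS-G0 the lowest (-0.13 ± 0.25; SD, n = 4), and their ranges overlap. Over the 9 tested probes, LPS-G0 had the lowest group mean for 5, C-G0 for 3 and C-G2 for 1. When the 6 groups were ordered by mean, the ranges of neighbours overlapped in 45 of 45 cases. For Cd74, the overlap of LPS-G0 with C-G0 came from C-G0 replicate 1 alone. The largest step between neighbours was 0.45 for Cd74, against a pooled within-group SD of 0.447.

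**Figure D1:**
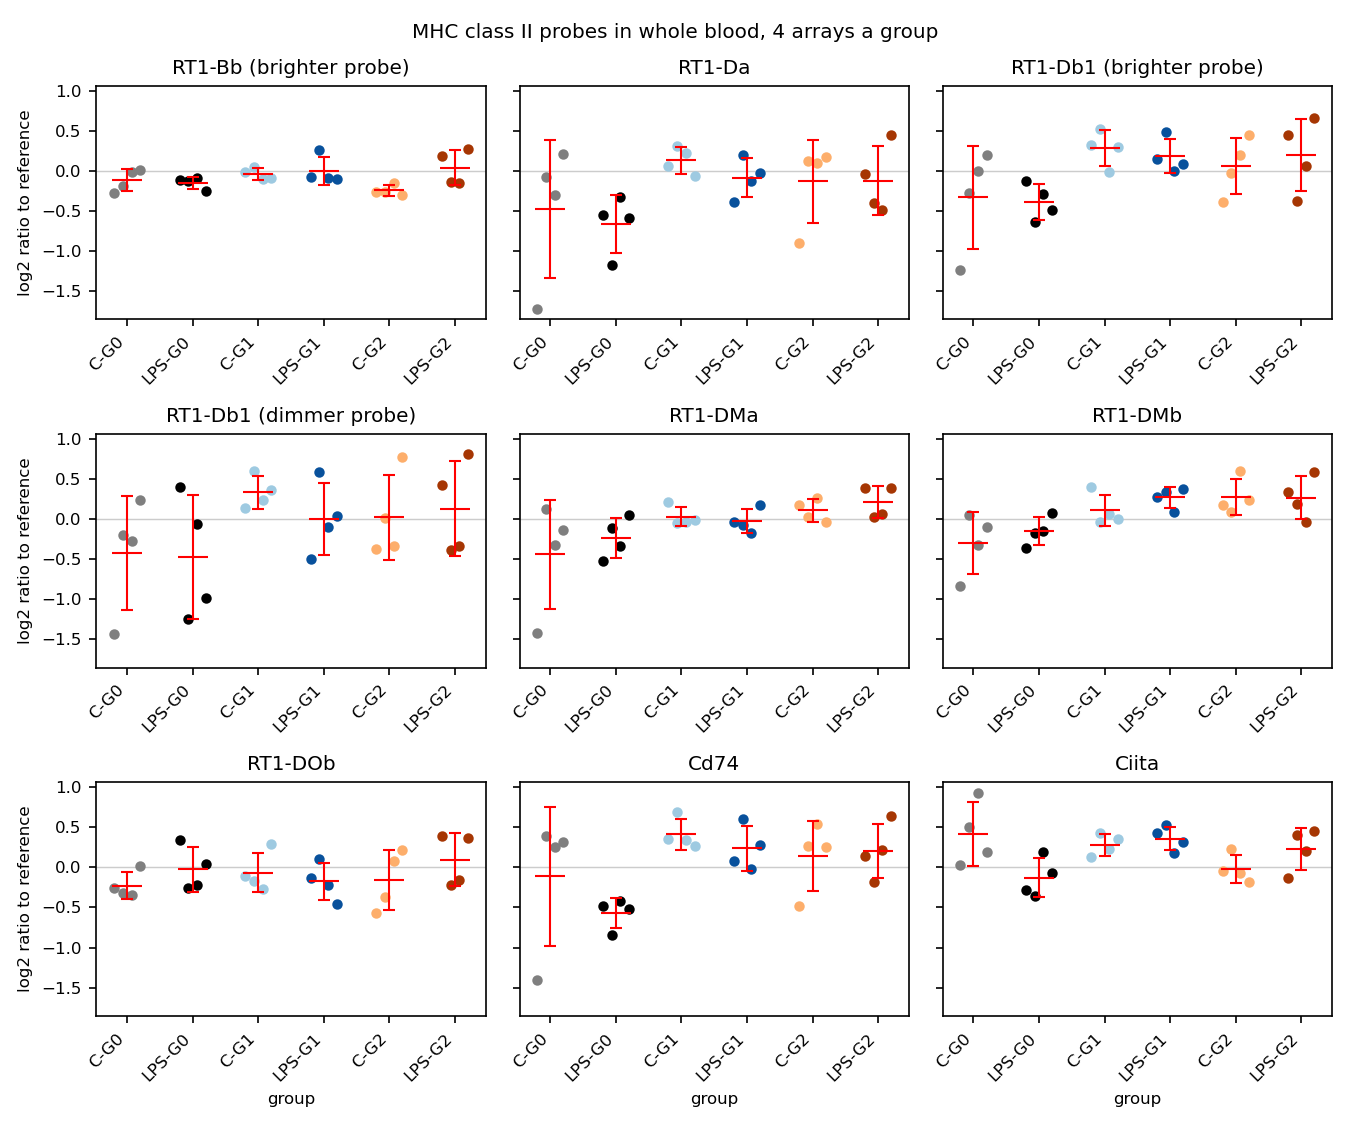
Log2 ratio to the reference (y axis) of the 9 tested class II probes in the 6 groups (x axis). Each point is 1 array, the long bar is the group mean and the error bars are 1 SD (n = 4). Cd74 in LPS-G0 lies between -0.84 and -0.42, below every LPS-G1 and LPS-G2 array, and C-G0 replicate 1 is the lowest point of 6 probes. The share of all tested probes with this order of the LPS groups was not counted.

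The first comparison asks what LPS does on the plain diet. In LPS-G0 relative to C-G0, Ciita was lower by 0.54 on the log2 scale (SE 0.18, 95% interval of the log2 fold change -0.92 to -0.17) and Cd74 by 0.45 (interval -1.07 to 0.16). The loading genes RT1-DMa and RT1-DMb were higher by 0.21 and 0.15, within their error. With adjustment over all 10708 tested probes by limma, 0 of 9 class II probes passed, where 0% of all probes did. At an unadjusted p under 0.05 only Ciita was lower, against a background of 4.5% of all probes lower at that limit. Its adjusted p by limma was 0.414 and its exact two-sided permutation p was 0.0571 (the smallest p that 4 against 4 allows is 0.0286). The median over the 9 probes was -0.05, and over all probes 0.02.

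These values depended on C-G0 replicate 1. Without it Cd74 was lower by 0.88 (adjusted p by limma 0.0892), Ciita by 0.67 (0.0933), RT1-Da by 0.60 and the brighter RT1-Db1 probe by 0.36, and the signs of RT1-DMa and RT1-DMb turned to -0.12 and -0.02. With C-G1 replicate 2 left out as well, a choice made after seeing the data, Cd74 and Ciita passed the adjusted threshold (adjusted p by limma 0.0244 and 0.0378), and 718 of all probes passed. Ciita depended on C-G0 replicate 3 as well, without which it was lower by 0.37. Without LPS-G0 replicates 3 and 4, Ciita was lower by 0.73 and Cd74 by 0.55 (adjusted p by limma 0.750 and 0.751). Within the 3 slides Ciita differed by -0.59, -0.73 and -0.26 and Cd74 by -0.15, -0.67 and -0.84.

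The same question was asked on the beta-glucan diets, where no class II probe differed beyond the adjusted threshold. In LPS-G1 relative to C-G1 the 9 probes ranged from -0.33 to 0.16, and 0 passed the adjusted threshold (0.00934% of all probes passed) or an unadjusted p under 0.05 (2.81%). In LPS-G2 relative to C-G2 they ranged from -0.01 to 0.28, and 0 passed where 0% of all probes did. The brighter RT1-Bb probe, higher by 0.28, was the 1 member at an unadjusted p under 0.05, against 0.588% of all probes higher at that limit, and it missed that limit when any 1 of 5 arrays was left out (C-G2 replicates 1, 2 and 4, LPS-G2 replicates 1 and 4). Averaged over the 3 diets, LPS left all 9 probes between -0.19 and 0.12. There 0 members passed the adjusted threshold (0.0187% of all probes) and 0 the unadjusted one (9.61%). The averaged value of Cd74 went from -0.19 to -0.33 without C-G0 replicate 1 and to -0.22 without LPS-G0 replicates 3 and 4.

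Whether the LPS difference itself changed with diet was tested as an interaction. For Ciita the difference between LPS and control was 0.62 higher on G1 than on G0 (95% interval 0.09 to 1.15) and 0.79 higher on G2 than on G0 (0.26 to 1.32). Ciita was the only member at an unadjusted p under 0.05 in either test, where 1.89% and 3.18% of all probes were higher at that limit. None of the 9 passed the adjusted threshold for G1 (adjusted p of Ciita by limma 0.999, 0% of all probes called) or for G2 (0.832, 0%). Both interactions rest on the same C-G0 and LPS-G0 arrays. Without C-G0 replicate 1, the interaction of Cd74 went from 0.28 to 0.71 for G1 and from 0.51 to 0.94 for G2, and that of Ciita was 0.75 and 0.92. Without LPS-G0 replicates 3 and 4, Ciita gave 0.81 and 0.98 and Cd74 0.37 and 0.61. No member passed the adjusted threshold in these fits. Without C-G0 replicate 3 or LPS-G0 replicate 2, Ciita missed the unadjusted limit for G1.

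The comparison of the LPS groups asks how the high molecular weight beta-glucan went with class II expression under LPS. In LPS-G1 relative to LPS-G0, Cd74 was higher by 0.80 (1.75-fold, SE 0.30, 95% interval 0.19 to 1.42), the brighter RT1-Db1 probe by 0.57 (1.49-fold, SE 0.26), Ciita by 0.49 (1.40-fold, SE 0.18) and RT1-DMb by 0.42 (1.34-fold, SE 0.18). RT1-Da was higher by 0.57 with an interval that includes 0 (-0.09 to 1.23). The dimmer RT1-Db1 probe was higher by 0.48 (p by limma 0.217, exact permutation p 0.314), with overlapping groups. RT1-DOb was the only tested probe that was lower, by 0.15. None of the 9 passed the adjusted threshold (0.028% of all probes passed), the adjusted p of Cd74, the brighter RT1-Db1 probe, Ciita and RT1-DMb being 0.125, 0.185, 0.126 and 0.166 by limma. These 4 had an unadjusted p under 0.05, where 7.98% of all probes were higher at that limit. For Cd74, the brighter RT1-Db1 probe and RT1-DMb the groups did not overlap, as for 7.27% of all probes in that direction, and the exact two-sided permutation p was 0.0286 for each, the smallest possible. The median over the 9 probes was 0.48, and over all probes 0.07.

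Within the 3 slides, LPS-G1 differed from LPS-G0 by 0.74, 0.72 and 0.80 for Cd74, by 0.54, 0.54 and 0.58 for the brighter RT1-Db1 probe, and by 0.54, 0.36 and 0.30 for RT1-DMb. Ciita gave 0.74, 0.16 and 0.38, and the dimmer RT1-Db1 probe gave -0.08, 0.30 and 1.02, so the RT1-Db1 probes were unlike in this respect. Instead of 4 probes at the unadjusted limit, 2 were counted when replicate 2 of LPS-G0 or of LPS-G1 was omitted. Leaving out any 1 array kept Cd74 between 0.68 and 0.89, with an adjusted p by limma of 0.0536 to 0.296. Without C-G0 replicate 1 and C-G1 replicate 2, which are in neither group but bear on the shared spread, the filter and the adjustment, Cd74 passed (adjusted p by limma 0.0170) and 1502 of all probes did. Without LPS-G0 replicates 3 and 4, the arrays with conflicting labels, Cd74 was higher by 0.90, Ciita by 0.68, the brighter RT1-Db1 probe by 0.57 and RT1-DMb by 0.53 (smallest adjusted p by limma 0.283).

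The low molecular weight beta-glucan was set against the same LPS-G0 arrays. In LPS-G2 relative to LPS-G0, Cd74 was higher by 0.77 (1.71-fold, 95% interval 0.15 to 1.39), the brighter RT1-Db1 probe by 0.58, RT1-DMa by 0.45, RT1-DMb by 0.42 and Ciita by 0.36. Again 0 of 9 passed the adjusted threshold (0% of all probes), the smallest adjusted p being 0.766 by limma. Cd74, the brighter RT1-Db1 probe and RT1-DMb had an unadjusted p under 0.05, where 2.79% of all probes were higher at that limit. The dimmer RT1-Db1 probe, higher by 0.60, had a p of 0.121 by limma. The count of 3 was 0 without LPS-G2 replicate 4, which was the highest array for 5 of the 9 tested probes, 1 without LPS-G0 replicate 2, 2 without LPS-G2 replicate 1 or with slide as a block, and 6 without C-G0 replicate 1. Only Cd74 did not overlap, against 2.75% of all probes in that direction. The median over the 9 probes was 0.45, and over all probes -0.02. Within slides Cd74 was higher by 0.80, 0.24 and 0.95, and the brighter RT1-Db1 probe by 0.83 and 0.85 on slides 1 and 3 and lower by 0.09 on slide 2. Without LPS-G0 replicates 3 and 4, Cd74 was higher by 0.87, the brighter RT1-Db1 probe by 0.58 and RT1-DMb by 0.53 (adjusted p by limma 0.907).

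Directly compared, LPS-G1 and LPS-G2 gave 0 of 9 probes at the adjusted threshold (0% of all probes) and 0 at an unadjusted p under 0.05 (4.21%). Differences lay between -0.27 and 0.13, with Cd74 at 0.03 and the brighter RT1-Db1 probe at -0.01 on the log2 scale. The 95% intervals, -0.58 to 0.65 for Cd74 and -0.55 to 0.52 for the brighter RT1-Db1 probe, leave room for differences in either direction. The dimmer RT1-Db1 probe was at -0.13 (interval -0.90 to 0.65).

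Without LPS, both beta-glucan groups were set against C-G0. In C-G1, the brighter RT1-Db1 probe was higher by 0.61, RT1-DMa by 0.47 and RT1-DMb by 0.41, the 3 members at an unadjusted p under 0.05, where 12.1% of all probes were higher at that limit. None of the 9 passed the adjusted threshold (0.028% of all probes). Without C-G0 replicate 1 the values were 0.31, 0.14 and 0.23, with 0 members at the unadjusted limit, and Cd74 went from 0.53 to 0.09 and RT1-Da from 0.61 to 0.19. That count was 1 without C-G0 replicate 3, C-G1 replicate 1 or C-G1 replicate 2, 5 without C-G0 replicate 2 and 6 without C-G0 replicate 4.

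In C-G2 relative to C-G0, RT1-DMb was higher by 0.58 (SE 0.18, adjusted p by limma 0.220) and RT1-DMa by 0.55, where 5.41% of all probes were higher at an unadjusted p under 0.05. Ciita was lower by 0.43, where 7.84% of all probes were lower. RT1-DMb was the only member whose groups did not overlap, against 1.34% of all probes in that direction. The adjusted threshold was passed by 0 of 9 (0.028% of all probes). Without C-G0 replicate 1, RT1-DMb was higher by 0.40 and RT1-DMa by 0.22, Ciita was lower by 0.56, and Cd74 turned from 0.26 to -0.17. Without C-G0 replicate 3, Ciita was lower by 0.26. Within slides RT1-DMb was higher by 0.57, 0.42 and 0.52.

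**Figure D2:**
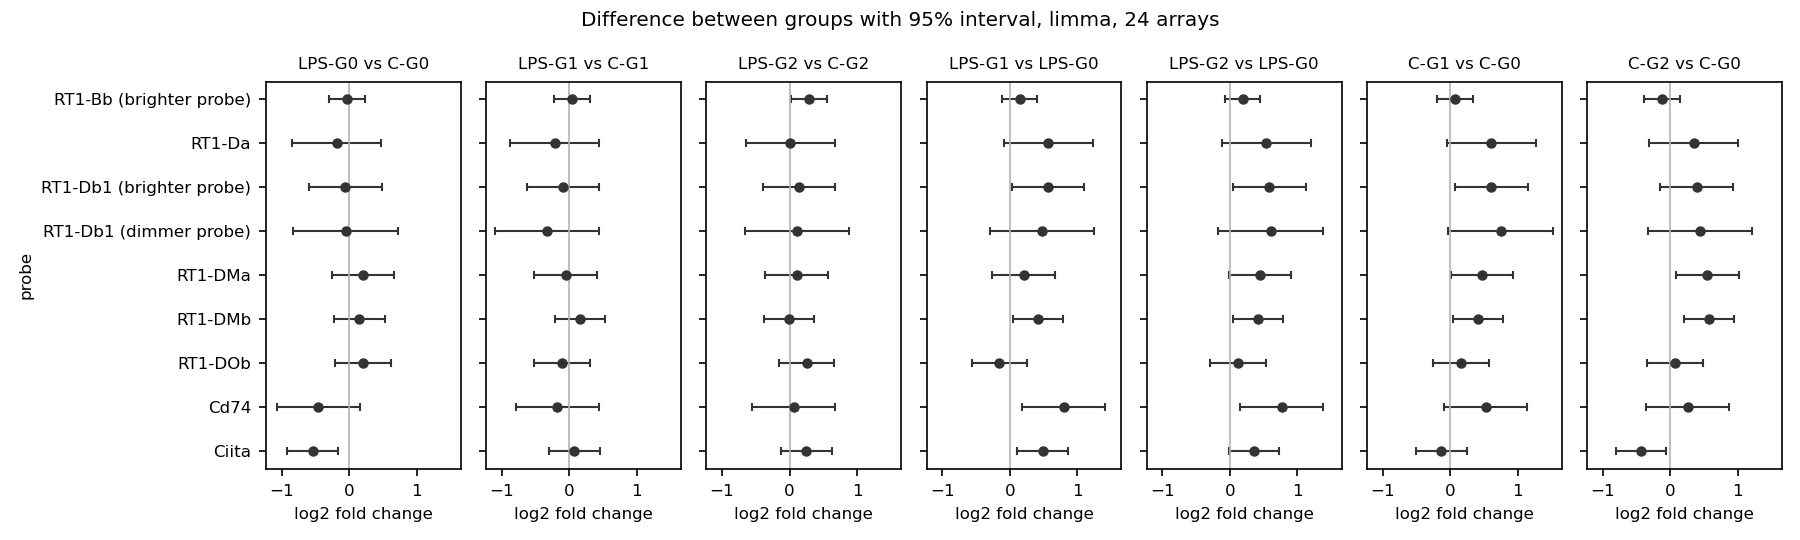
Log2 fold change (x axis) of each tested class II probe (y axis) in 7 comparisons, with the 95% interval from limma as error bars. In LPS-G1 vs LPS-G0 the intervals of RT1-Db1 (brighter probe), RT1-DMb, Cd74 and Ciita lie above 0, and in LPS-G0 vs C-G0 only that of Ciita lies off 0. No probe passed the adjusted threshold in any of these comparisons.

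Over single arrays some members varied together and others did not. The strongest likeness was between Cd74 and RT1-Da (r = 0.934), then Cd74 and RT1-Db1 (0.888), RT1-Da and RT1-Db1 (0.883), and the partner chains RT1-DMa and RT1-DMb (0.882; n = 24 arrays, which share the reference pool and 3 slides). Without the 2 arrays that stood apart these were 0.885, 0.805, 0.794 and 0.831. Links between the presenting chains and DM were looser and leaned on those arrays: RT1-Da with RT1-DMa gave 0.641 over 24 arrays and 0.310 over 22. Ciita followed Cd74 (0.513 and 0.542) but not RT1-DMa (0.072 and -0.029) or RT1-DMb (0.065 and 0.016). These correlations are descriptions, with no test.

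**Figure D3:**
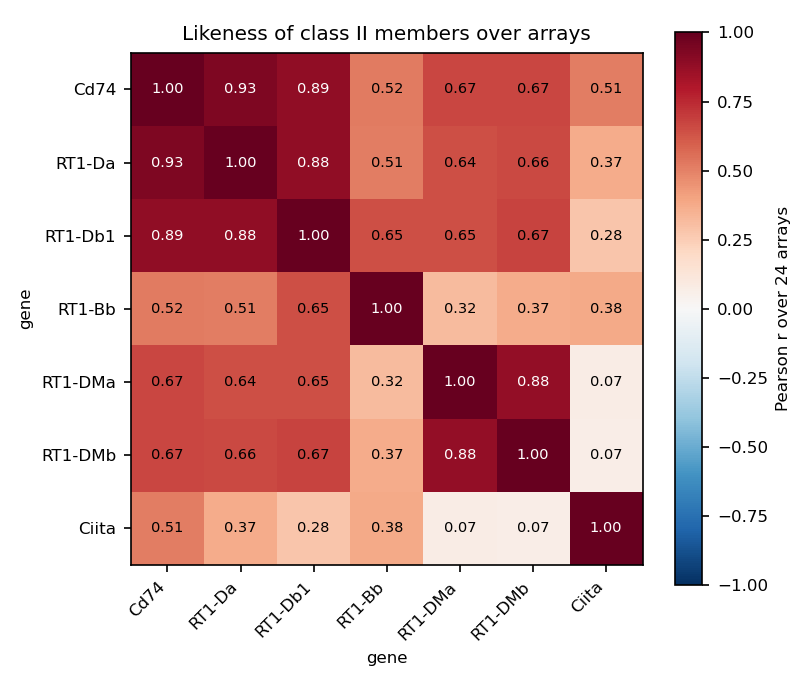
Pearson correlation over 24 arrays of the log2 ratios of 7 class II genes (both axes; RT1-Bb and RT1-Db1 by the brighter probe), with color and printed number giving r. Cd74, RT1-Da and RT1-Db1 form a block at 0.88 to 0.93, RT1-DMa and RT1-DMb reach 0.88, and Ciita has r of 0.07 with both DM chains.

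Other genes with the same course were sought over the 5430 probes well above background on every array. By Pearson correlation with the mean of 7 centered class II genes over 24 arrays, the closest were Cd79b (0.939), a signaling chain of the B cell receptor, Ctsa (0.921), a lysosomal carboxypeptidase, Gps1 (0.917), a subunit of the COP9 signalosome, Cd83 (0.912), a surface protein of activated antigen-presenting cells, and Ifi30 (0.911), a lysosomal thiol reductase that unfolds antigens. RGD1559682 (0.903), Clta (0.902), a clathrin light chain, and Ly86 (0.893), which pairs with the receptor Rp105 on B cells, followed. The ranking was not repeated without the 2 arrays that stood apart. On C-G0 replicate 1 the class II mean was -0.97, and on the other arrays it lay between -0.48 and 0.50.

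Genes of the class II pathway other than the members were taken as a list of 35, of which 31 were on the array and 19 were tested. None of the 19 passed the adjusted threshold in any of the 11 comparisons. In LPS-G1 relative to LPS-G0 the list had a median of 0.24, with an unadjusted p under 0.05 for Cd40 (higher by 1.01, adjusted p by limma 0.105), the receptor through which T cells license antigen-presenting cells, for Ifi30 (higher by 0.53), for Lgmn (higher by 0.43), a lysosomal endopeptidase, and for March8 (lower by 0.85), a ubiquitin ligase that removes class II from the surface. In LPS-G2 relative to LPS-G0 the median was also 0.24, and Cd40 (0.85), Ifi30 (0.64), Ifngr1 (0.45) and Ifngr2 (0.48), the chains of the interferon-gamma receptor, were higher at that limit. At that limit 7.98% of all probes were higher in LPS-G1 and 2.79% in LPS-G2, each relative to LPS-G0. The share of all probes lower is not given for the 2 comparisons with March8 values. Without LPS, Cd40 and March8 reached that limit in C-G1 but not in C-G2, each relative to C-G0. In C-G1 relative to C-G0, 6 list genes were higher at that limit (12.1% of all probes) and 3 lower. Cd40 was at 0.66 and March8 at -0.85 (adjusted p by limma 0.170 and 0.131). The list median there was 0.25. In C-G2 relative to C-G0, 3 were higher (5.41% of all probes) and 2 lower (7.84%), with a median of 0.11. The mean of the 16 list genes detected on all arrays followed the class II mean with r = 0.849 over 24 arrays and 0.784 over 22. Among the X-box factors Rfx5 was well above background on 4 arrays and Rfxap on 2, and neither was tested. RT1-DOa, the partner of RT1-DOb, was detected on 6 arrays and was not tested either.

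Levels of cell type markers are given beside these values. The mean of 5 detected B cell markers (Ms4a1, Cd79b, Pax5, Fcrla and Bank1) lay between -0.39 and 0.04 in LPS-G0, -0.23 and 0.29 in LPS-G1 and -0.29 and 0.28 in LPS-G2, and followed the class II mean with r = 0.603 (0.538 without the 2 arrays that stood apart, 0.687 within groups). The monocyte list lay between -0.43 and -0.07 in LPS-G0, -0.13 and 0.29 in LPS-G1 and -0.11 and 0.27 in LPS-G2, with r = 0.595 over 24 arrays and 0.219 over 22. The erythroid list lay between 0.28 and 0.34 in LPS-G0 and between -0.56 and 0.15 in LPS-G1, which do not overlap, and between 0.05 and 0.31 in LPS-G2, which overlaps LPS-G0, with r = -0.513. The neutrophil list lay between -0.55 and -0.12 in LPS-G0, -0.39 and 0.06 in LPS-G1 and -0.20 and 0.89 in LPS-G2, with r = -0.059. In LPS-G2 relative to LPS-G0 its 6 genes had a median of 0.66. S100a8, Csf3r and Camp were higher there at an unadjusted p under 0.05, as were 2.79% of all probes. Of the monocyte markers, Fcgr1a and Lyz2 were also higher there at that limit. In LPS-G1 relative to LPS-G0, Lyz2 was higher at that limit (7.98% of all probes). The erythroid markers Klf1 and Epb42 were lower there at that limit, with a list median of -0.32. Of 3 tested dendritic cell markers only Zbtb46 was lower at that limit, and the median of the 3 was 0.21. The share of all probes lower at that limit is not given for this comparison. T cell markers followed the class II mean with r = 0.507 (0.299 over 22 arrays, 0.587 within groups) and platelet markers with -0.363 (-0.011 over 22), and in both lists the ranges of the 3 LPS groups overlap. Without LPS the B cell list averaged 0.14 in C-G0, 0.05 in C-G1 and -0.13 in C-G2. The class II mean averaged -0.19, 0.18 and 0.03 there, and the monocyte list -0.23, 0.08 and 0.13. Relative to C-G0, Pax5 was lower in C-G1 and Ms4a1 in C-G2 and LPS-G0 at an unadjusted p under 0.05. Cd79b, the gene closest to the class II mean, is itself in the B cell list. None of the markers in these lists passed the adjusted threshold in any comparison. Of the dendritic cell markers, Clec9a and Cd209a were above background on 0 arrays. The part of cell composition in the class II values was not tested.

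**Figure D4:**
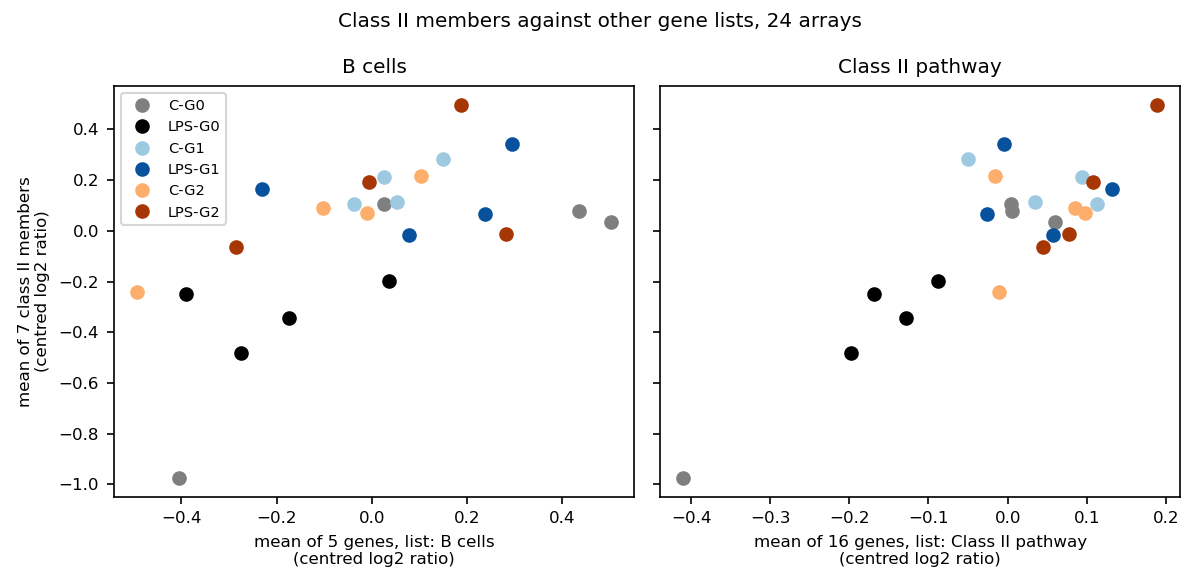
Mean centered log2 ratio of 7 class II genes (y axis) against the mean of 5 B cell markers (left, x axis) and of 16 other class II pathway genes (right, x axis), each point 1 of 24 arrays colored by group. The 4 LPS-G0 arrays lie between -0.48 and -0.20 on the y axis, below every LPS-G1 and LPS-G2 array, and C-G0 replicate 1 is the lowest point at -0.97. How often the mean of other genes shows this order was not counted.

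RT1-Ba, the alpha chain of RT1-B, and the dimmer RT1-Bb probe did not pass the filter on dim probes. The array probes are printed to show what was measured. They are given in lower case throughout, 5′ to 3′, since no position in them is singled out. Positions are those of the array annotation on rn4, for which no exon or intron annotation was used here. Of the dimmer RT1-Bb probe only the first 30 of 60 bases are shown: it has a stop in all 3 reading frames, and the array annotation aligns it over 51 bases only. The brighter probe is open in 2 of 3 frames.
RT1-Ba (chr20:4700973-4701032, plus strand): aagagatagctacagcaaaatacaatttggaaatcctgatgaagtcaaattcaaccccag
RT1-Bb, brighter probe (chr20:4732187-4732246, minus strand): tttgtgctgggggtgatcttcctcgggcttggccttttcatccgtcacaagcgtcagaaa
RT1-Bb, dimmer probe (chr20:4730533-4730583, minus strand): cagctgtgacagttgtgaaataccctagct

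The dimmer RT1-Bb probe was off or on by array. In Cy3 it was well above background on 3 of 24 arrays, LPS-G0 replicate 1 (log2 ratio 2.66), C-G2 replicate 1 (2.48) and C-G2 replicate 4 (2.54). On the other 21 arrays it lay between -5.65 and -2.25, where only a bound can be read. In the reference channel it was well above background on all 24 arrays. Its Cy3 signal was 10.24 to 11.52 (log2) on the 3 arrays and 3.15 to 5.54 on the 21, while its Cy5 signal was 7.62 to 8.98 on all of them. The brighter probe of the same gene was between 11.10 and 12.24 in Cy3 on all 24 arrays.

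The 3 arrays came from 2 groups, with LPS and without. Of the probes well above background on every array, the 5 most like the dimmer RT1-Bb probe, found after its values were seen, all belong to the class I genes of the same RT1 complex: RT1-CE16 (r = 0.837), RT1-A1 (0.818 and, by a second probe, 0.698), Rt1.aa (0.786) and RT1-T24-1 (0.741; 5430 probes, 24 arrays). RT1-CE16 read 1.22, 1.01 and 1.01 on those arrays and -0.62 to 0.61 on the other 21. The first RT1-A1 probe read 1.04, 1.30 and 0.92, and -0.64 to 0.41 elsewhere, so for both of these probes the 3 arrays were the highest of 24. The same held for Rt1.aa (1.13, 1.62 and 1.03, at most 0.76 elsewhere) and RT1-T24-1 (0.90, 1.17 and 0.65, at most 0.38 elsewhere). The second RT1-A1 probe read 0.34, 0.71 and 0.41, and -0.44 to 0.41 elsewhere, so there LPS-G0 replicate 1 was not among the highest. As 21 of the 24 values of the dimmer RT1-Bb probe are below background, r serves here only to order the probes. Class I genes of the rat are a family of near-identical copies, so which copy each probe measures is uncertain. MHC genes are polymorphic between rats, and the part of inherited variation in these probe signals was not tested.

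RT1-Ba was well above background on 2 arrays, C-G2 replicate 1 at 3.91 and LPS-G0 replicate 4 at -0.20. All other arrays lay between -0.77 and 1.80 and were not well above background. No fold change is given for RT1-Ba or for the dimmer RT1-Bb probe, and neither passed the adjusted threshold when the filter was dropped.

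**Figure D5:**
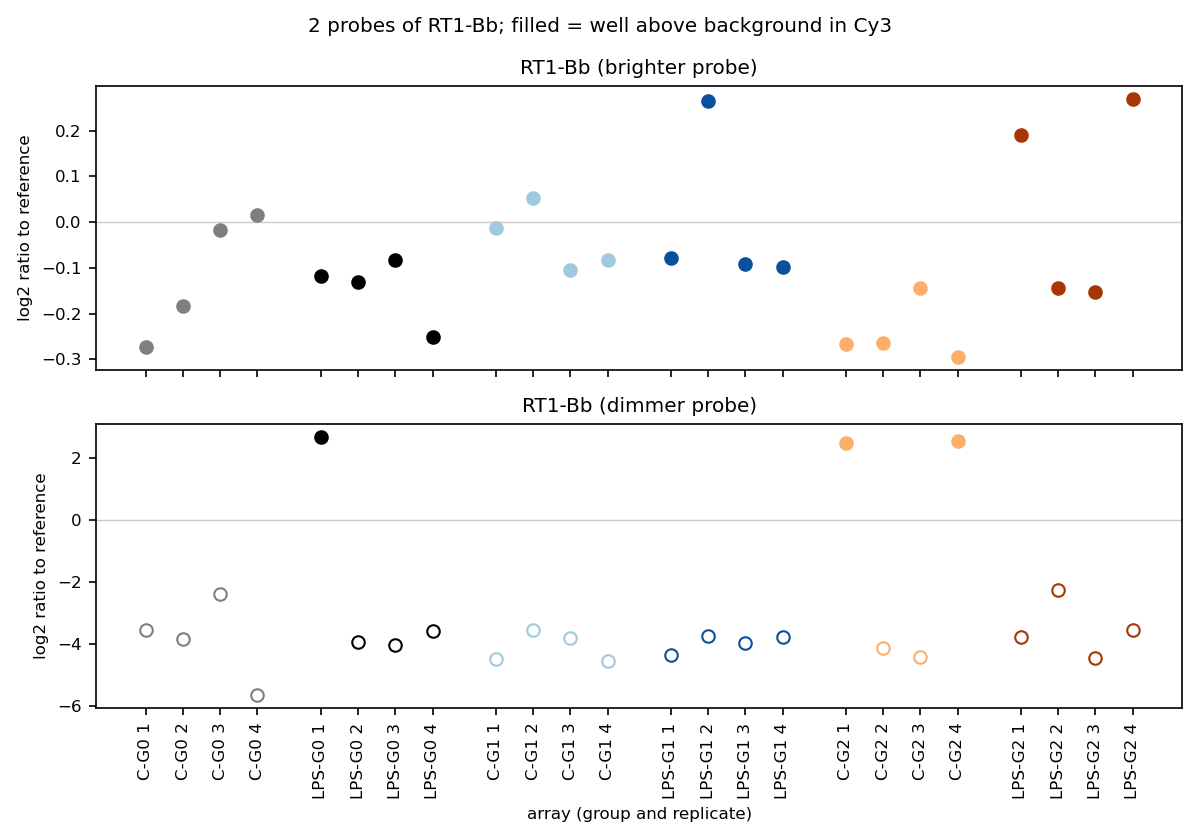
Log2 ratio to the reference (y axis, on different scales in the 2 panels) of the brighter (top) and dimmer (bottom) RT1-Bb probe on each of 24 arrays (x axis). Filled points are well above background in Cy3. The dimmer probe is at 2.48 to 2.66 on 3 arrays and below -2 on the others, whereas the brighter probe stays between -0.30 and 0.27.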

How the data were processed

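Gene expression was measured on 24 Agilent arrays with 62976 spots. Every array held a single rat's blood RNA (Cy3, per the labels) and a common reference (Cy5). The labels describe the reference as RNA pooled from all rats in the experiment, and the methods as RNA of rats that were not hybridized. The labels call the arrays biological replicates. Per the file headers, the authors used Agilent Feature Extraction 10.10.1.1 (10.7.3.1 in the submitters' processing notes), which subtracts background and balances the dyes by Lowess. The deposited files hold processed and raw intensities, log10 ratios of Cy5 over Cy3, and a flag per spot for signal well above background. A deposited table of the whole series repeats the log10 ratios (1511424 of 1511424 identical).

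The log10 ratios deposited by the authors were turned to log2 of Cy3 over Cy5. Outlier spots (679 to 1133 per array) were left out of 58717 spots that are not controls, and spots of a probe were averaged, giving 30367 probes. A probe was tested if any of the groups had it above background, by the Cy3 flag, on each of its 4 arrays (10708 probes). One limma model (limma 3.58.1, R 4.3.3, data.table version 1.17.8) covered the 6 groups, with 11 comparisons. P-values were two-sided and adjusted by Benjamini-Hochberg over all tested probes, with a threshold of 0.05. Of the tested probes, 32 lacked a value on an array, none of them a class II probe. The code was tested on simulated data. Single genes were also tested by exact permutation over the 70 arrangements of 4 against 4. All tested class II probes are named, and other genes by their correlation with the class II mean or, on the pathway list, by an unadjusted p under 0.05. The array number limits precision.

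The members, gene lists and comparisons were chosen with earlier results of these data known. Of the B cell marker list, 1 gene is not reported here. Alternatives were other samples, background correction, filters, blocks, weights and omitted arrays. Replicate numbers were not used as pairs in the main model, and a fit with the replicate number as a block was run as an alternative. Of 60 equal-numbered pairs from different groups, 28 had r over 0.1 (range -0.307 to 0.538). For 12 of 24 arrays the best correlation was with an array of their own number. All replicates 1 lay on slide 1 and all replicates 4 on slide 3.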

Additional observations from a re-analysis of the deposited data

Results flagged for a closer look

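Within groups of 4, 1 array stood far from the other 3 (Dixon's ratio of gap to range, at the 95% level) in 4 of 54 cases (7.41%) over the 9 tested probes, where chance gives about 1 in 20. For Cd74, C-G0 replicate 1 was at -1.40 and the others at 0.25 to 0.39 (ratio 0.925). For RT1-Da, C-G2 replicate 1 was at -0.90 and the others at 0.10 to 0.17 (0.935). For RT1-DMa, C-G1 replicate 1 was at 0.21 and the others at -0.04 to -0.01 (0.848). For the brighter RT1-Bb probe, LPS-G1 replicate 2 was at 0.27 and the others at -0.10 to -0.08 (0.943).

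Signal also appeared in 2 probes below the filter on dim probes, above the highest C-G0 array, which was itself not above background. RT1-Ba reached 3.91 on C-G2 replicate 1, where the highest C-G0 array read 1.16. The dimmer RT1-Bb probe reached 2.66 on LPS-G0 replicate 1, 2.48 on C-G2 replicate 1 and 2.54 on C-G2 replicate 4, where the highest C-G0 array read -2.40. The cause of these values was not tested.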

How the results depend on the processing

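The number of class II probes past the adjusted threshold was 0 in all 11 comparisons under every setting run but 2. With array weights, Cd74 (-0.78, adjusted p by limma 0.0382) and Ciita (-0.71, 0.0250) passed in LPS-G0 relative to C-G0, so 2 probes did, beside 917 of all probes. In LPS-G1 relative to LPS-G0, 4 passed with weights: Cd74 (0.81, 0.00460), Ciita (0.53, 0.0171), RT1-DMb (0.46, 0.0225) and RT1-Da (0.61, 0.0389), beside 2955 of all probes against 3 without weights. Leaving out C-G0 replicate 1 and C-G1 replicate 2 together, chosen after seeing the data, gave 2 and 1 in these comparisons (718 and 1502 of all probes against 0 and 3). By analysis of variance with Tukey's test, the adjusted p of all class II probes in both comparisons was 1. Tukey's p already covers all pairs of the 6 groups, and it was adjusted by Benjamini-Hochberg over all tested probes on top. The value is thus corrected in 2 steps. The brighter RT1-Db1 probe in LPS-G2 relative to LPS-G0 reversed to -0.0878 within slide 2. With the replicate number as a block, 0 class II probes passed in any comparison, and all probes passing in LPS-G1 relative to LPS-G0 went from 3 to 1008. The 16 arrays of C-G0 and the LPS groups alone gave 921 there, and normexp with loess 274. In C-G1 relative to C-G0 the block gave 600 (3 without) and in C-G2 relative to C-G0 43 (3 without). The cause was not tested. Leaving out single arrays changed 101 of 2376 signs and passed 0 single values. Many of these signs could not change, since a fold change moves only when the omitted array is in a compared group. The share of signs changed is therefore no measure of stability. Within slides 52 of 216 signs changed.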
